A study of Oryza sativa with 6 samples.

Results

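The genes described are 6 transcription factor genes of rice (Oryza sativa) linked to root development. They are the SHORT-ROOT genes OsSHR1 and OsSHR2, the SCARECROW genes OsSCR1 and OsSCR2, and the WUSCHEL-related homeobox (WOX) genes QHB and WOX11. They were chosen by their locus identifiers, and all 6 were found among the 56962 genes of the count table. Messenger RNA was sequenced in 3 libraries of the mutant lad (sr1 is its other name in the labels) and in 3 of the wild type J10. All seedlings were grown at 25°C, and the last 0.5 cm of the root was taken 6 days after sprouting, so each library mixes the meristem with the other tissues of the tip. The labels give no allele, locus or cause of the mutation. The series title uses the name SHORT-ROOT 1 for the mutated gene, but nothing in the labels ties that name to OsSHR1, so the OsSHR1 values are no check of the genotype. The labels do not say whether replicates came from separate plantings, so p-values measure the spread between these libraries, which may be technical.

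In the root of Arabidopsis, SHORT-ROOT is a GRAS-family transcription factor that is made in the stele, the central cylinder that holds the vascular tissue, and moves outward into the neighbouring cell layer. There it binds SCARECROW, another GRAS protein, and the pair drives the asymmetric division that separates endodermis from cortex and helps maintain the quiescent centre. The quiescent centre is a small group of slowly dividing cells that keeps the surrounding stem cells undifferentiated. In rice, QHB (quiescent-centre-specific homeobox) is a marker of the quiescent centre, and WOX11 promotes the emergence and growth of crown roots, the shoot-borne roots of cereals.

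In lad root tips both SHORT-ROOT genes and QHB fell, and WOX11 rose, while neither SCARECROW gene passed the test. OsSHR1 was 30.3% lower, OsSHR2 34.7% lower and QHB 61.5% lower in lad than in J10, and WOX11 was 10.7-fold higher. These 4 calls used an adjusted p below 0.05 from an edgeR quasi-likelihood fit over 22624 tested genes. Across all tested genes 45.2% were called in the same comparison, 24.9% as higher in lad and 20.3% as lower, so 1 member higher and 3 lower is to be read against widespread change. The libraries of the genotypes did not overlap for the same 4 members, against 56.8% of tested genes, 30.2% with all lad libraries above J10 and 26.6% with all below. All 6 members passed the filter on low counts, WOX11 only through its lad libraries, since 1 of 3 J10 libraries reached the filter's level. In these whole root tips, fewer cells of a type and less RNA per cell cannot be told apart.

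**Figure D1:**
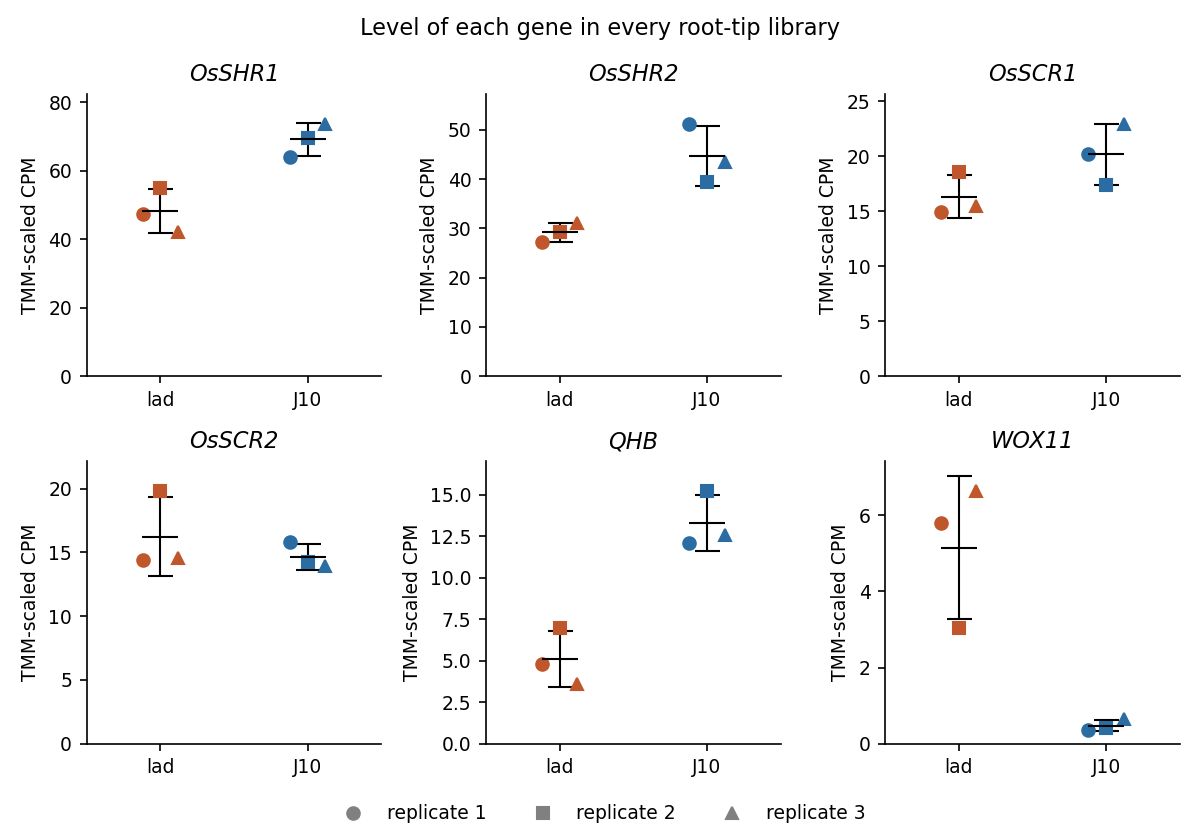
Each panel plots 1 gene in CPM, counts scaled to library size with TMM factors, with lad left of J10, symbols for the replicates, and a black bar for the mean with whiskers of 1 SD (n = 3 libraries each). The lad libraries lie below all J10 libraries for OsSHR1, OsSHR2 and QHB, and above them for WOX11, while the genotypes overlap for OsSCR1 and OsSCR2.

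OsSHR1 (LOC_Os07g39820, chromosome 7, 23868417 to 23871145, plus strand) had 47.4, 55.0 and 42.1 CPM in lad replicates 1 to 3, against 64.1, 69.5 and 73.7 CPM in J10 replicates 1 to 3. CPM here and below are counts scaled to library size with TMM factors, edgeR's correction for library composition. The coordinates are those of the deposited table, which names no build. Every lad library was below every J10 library. The means were 48.2 ± 6.50 CPM in lad and 69.1 ± 4.80 CPM in J10 (SD, n = 3 each). The log2 fold change, lad minus J10, was -0.52 ± 0.12 (SE), with an adjusted p of 0.00538 (edgeR quasi-likelihood, Benjamini-Hochberg over all tested genes, as for every adjusted p that follows). The counts behind these values were 813 to 926 in lad and 1247 to 1364 in J10.

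OsSHR2 (LOC_Os03g31880, chromosome 3, 18238256 to 18240730, minus strand) had 27.2, 29.3 and 31.0 CPM in the lad libraries, against 51.2, 39.3 and 43.6 CPM in the J10 libraries. The genotypes again did not overlap, and J10 replicate 1 was the highest library. Its log2 fold change was -0.62 ± 0.12 (SE), with an adjusted p of 0.00251. Summed over both SHORT-ROOT genes, the level was 73.1 to 84.4 CPM in lad and 109 to 117 CPM in J10. No difference between the genotypes was detectable in the proportion of the 2 genes. The log2 ratio of OsSHR1 to OsSHR2 counts averaged 0.72 ± 0.25 in lad and 0.63 ± 0.27 in J10, a difference of 0.08 (exact two-sided permutation test, p = 0.60, adjusted p = 0.60 over 3 tested quantities). With 3 libraries a genotype that test cannot give a p below 0.10.

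OsSCR1 (LOC_Os11g03110, chromosome 11, 1119742 to 1123350, plus strand) had 14.9, 18.6 and 15.5 CPM in lad, against 20.2, 17.4 and 23.0 CPM in J10. The genotypes overlapped, since lad replicate 2 was above J10 replicate 2. The log2 fold change was -0.31 with a 95% interval from -0.65 to 0.04 (adjusted p = 0.133), so the interval holds no change as well as a fall of the size seen in the SHORT-ROOT genes. OsSCR2 (LOC_Os12g02870, chromosome 12, 1043533 to 1047118, plus strand) had 14.4, 19.8 and 14.6 CPM in lad, against 15.8, 14.2 and 13.9 CPM in J10. Its groups overlapped too, and the fold change rested on lad replicate 2. The log2 fold change was 0.15 with an interval from -0.22 to 0.51 (adjusted p = 0.498), and it was -0.020 without lad replicate 2.

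The SCARECROW genes are near-identical duplicates at the ends of chromosomes 11 and 12, and the counting method, not given in the sources used here, decides how reads that match both copies are split. Their separate values are uncertain to that extent, and their sum is less so, unless reads matching both were discarded. The sum was 29.3, 38.4 and 30.0 CPM in lad, against 36.0, 31.7 and 36.9 CPM in J10. Fitted as 1 gene, the pair had a log2 fold change of -0.10 with an interval from -0.39 to 0.20 (adjusted p = 0.579). Within the pair, OsSCR1 took 50.9, 48.5 and 51.6% of the counts in lad, against 56.1, 55.0 and 62.2% in J10. Every lad library was below every J10 library in this share. The means were 50.3 ± 1.64% in lad and 57.8 ± 3.87% in J10 (exact two-sided permutation test, p = 0.10, the smallest possible with 3 against 3 libraries, adjusted p = 0.15). The log2 ratio of OsSCR1 to OsSCR2 counts, another of the 3 tested quantities, restates this share, so the adjustment counted more quantities than are distinct. The 95% Clopper-Pearson intervals of lad replicates 1 to 3 were 46.6 to 55.2%, 44.5 to 52.4% and 47.4 to 55.7%. All 3 overlapped those of J10 replicate 1 (52.4 to 59.9%) and J10 replicate 2 (51.0 to 59.1%), lad replicate 2 with J10 replicate 1 only just. The interval of J10 replicate 3, 58.5 to 65.9%, lay above those of all 3 lad libraries. These intervals cover counting error only.

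The proportion of SHORT-ROOT to SCARECROW transcripts was lower in every lad library than in every J10 library. The log2 ratio of the summed OsSHR1 and OsSHR2 counts to the summed OsSCR1 and OsSCR2 counts was 1.35, 1.13 and 1.28 in lad, against 1.68, 1.78 and 1.67 in J10. The means differed by -0.45, lad minus J10. The log2 ratio of WOX11 to QHB counts was 0.26, -1.19 and 0.87 in lad, against -4.97, -5.10 and -4.22 in J10. Both of these ratios were chosen after the values were seen and carry no test. They need no scaling between libraries, since both counts come from 1 library.

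**Figure D2:**
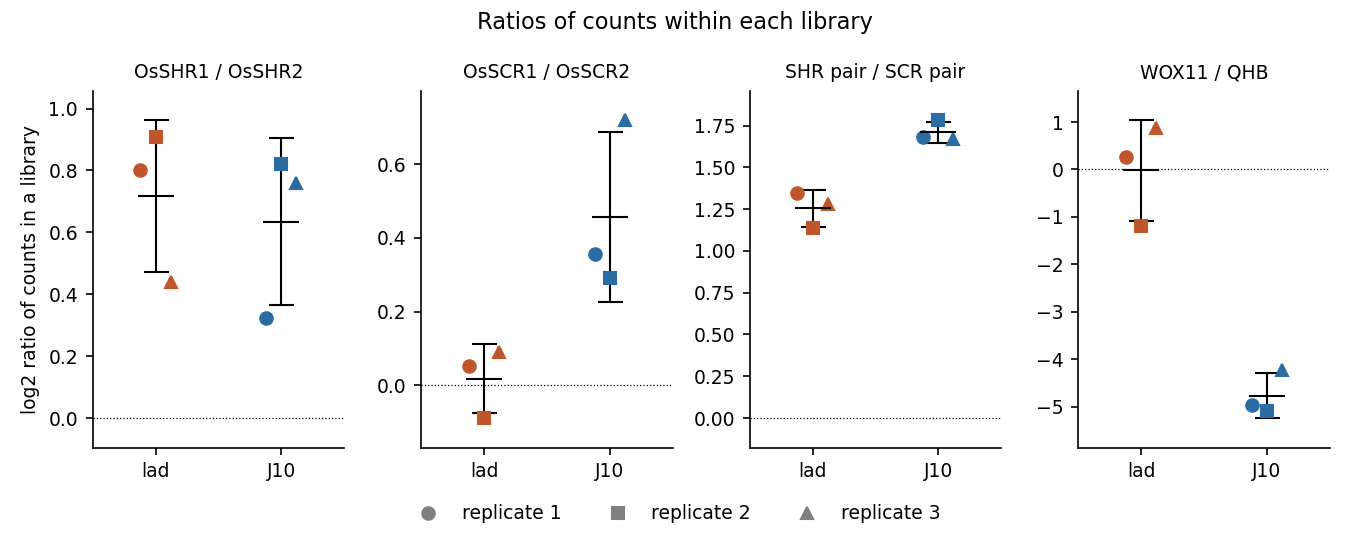
Each panel plots the log2 ratio of counts of 2 genes or pairs within a library, with lad left of J10, symbols for the replicates, and a black bar for the mean with whiskers of 1 SD (n = 3 libraries each). The vertical scale differs between panels, and the genotypes overlap only for OsSHR1 over OsSHR2.

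QHB (LOC_Os01g63510, chromosome 1, 36813724 to 36815023, minus strand) had 4.81, 6.96 and 3.63 CPM in the lad libraries, against 12.1, 15.2 and 12.6 CPM in the J10 libraries. The highest lad library was well below the lowest J10 library. The means were 5.13 ± 1.69 CPM in lad and 13.3 ± 1.69 CPM in J10 (SD, n = 3 each). The log2 fold change was -1.38 ± 0.24 (SE), with an adjusted p of 0.000970. QHB was detected in every library, with 70 to 117 counts in lad and 233 to 291 in J10. Of all tested genes, 571 had a lower log2 fold change than QHB.

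WOX11 (LOC_Os07g48560, chromosome 7, 29073043 to 29075687, plus strand) had 5.79, 3.03 and 6.63 CPM in lad, against 0.360, 0.419 and 0.648 CPM in J10. These are 107, 51 and 128 counts in lad and 7, 8 and 12 counts in J10, so the J10 level rests on few reads. The lowest lad library was still several times the highest J10 library. The log2 fold change was 3.43 ± 0.42 (SE), with an adjusted p of 9.38e-05, and its 95% interval ran from 5.66-fold to 20.4-fold higher in lad. Of all tested genes, 918 had a higher log2 fold change than WOX11. Since WOX11 passed the filter on low counts only through its lad libraries, that rank is partly set by the filter.

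**Figure D3:**
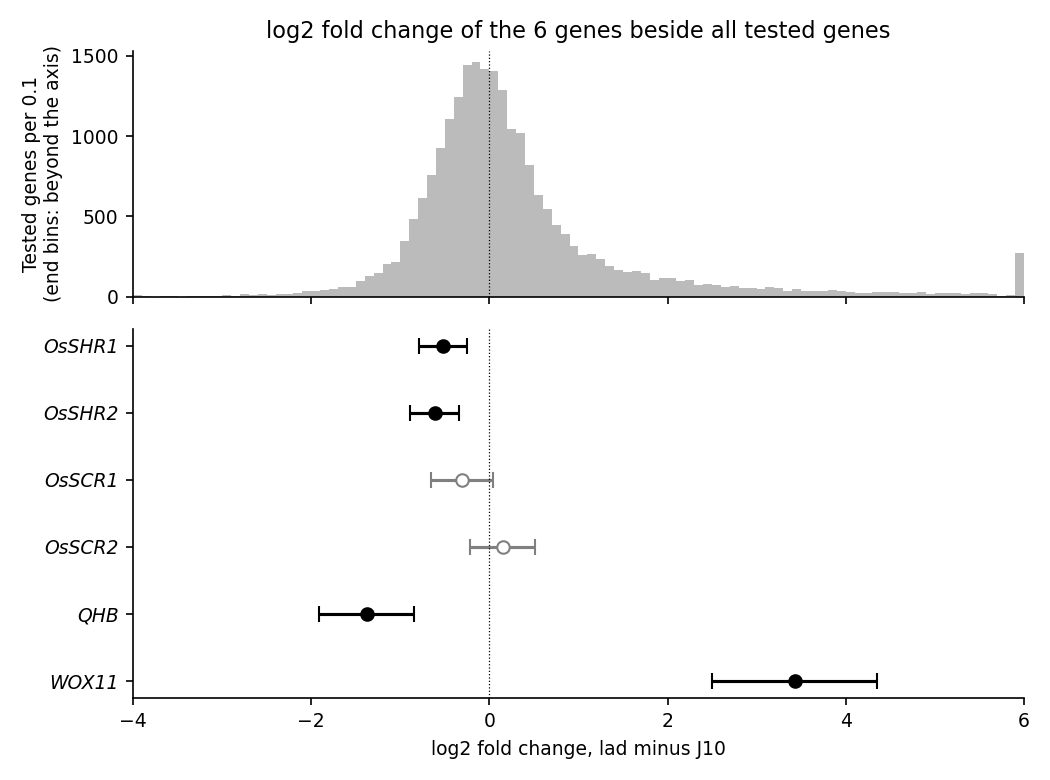
The upper panel is a histogram of the log2 fold change (lad minus J10) of all tested genes, with values beyond the axis placed in its end bins. The lower panel shows the 6 genes with 95% intervals, filled where the adjusted p was below 0.05. QHB and WOX11 lie toward opposite ends of the distribution, with 571 tested genes below QHB and 918 above WOX11. WOX11 is among the tested genes only through its lad libraries, so its place is partly set by the filter on low counts. Of tested genes, 14.7% lie below OsSHR2, 18.4% below OsSHR1, 29.3% below OsSCR1 and 57.8% below OsSCR2.

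Levels of different genes were compared per length, in TPM, length-scaled counts as a share of the library, from the deposited gene lengths, as a description within each genotype. In lad the order of mean TPM was OsSHR1 (26.9 ± 3.52), OsSHR2 (18.0 ± 0.998), OsSCR2 (9.99 ± 1.80), OsSCR1 (8.51 ± 0.945), QHB (6.56 ± 2.11) and WOX11 (5.54 ± 2.04). In J10 it was OsSHR1 (34.2 ± 2.30), OsSHR2 (24.6 ± 5.14), QHB (15.0 ± 0.889), OsSCR1 (9.37 ± 1.68), OsSCR2 (8.03 ± 1.10) and WOX11 (0.452 ± 0.143). QHB thus stood above both SCARECROW genes in J10 and below both in mean TPM in lad. Neighbours in the order overlapped between libraries for OsSCR2 and OsSCR1, OsSCR1 and QHB, and QHB and WOX11 in lad, and for OsSCR1 and OsSCR2 in J10. OsSHR1 lay above OsSHR2 without overlap in both genotypes. On the CPM scale, OsSHR1 in J10 was above 85.3% of tested genes, QHB above 48.9% and WOX11 above 5.22%, and in lad QHB was above 27.4%. CPM are not scaled by length, so these ranks reflect gene length as well as level.

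Among the lad libraries, replicate 2 lay closest to the J10 mean, on a log2 CPM scale, for 3 of the 4 called members (OsSHR1, QHB and WOX11), and replicate 3 did for OsSHR2. The same library was the closest for 57.8% of the 10229 called genes, against 23.9% for replicate 1 and 18.3% for replicate 3. Without lad replicate 2 the log2 fold changes were -0.63 for OsSHR1, -0.62 for OsSHR2, -1.66 for QHB and 3.69 for WOX11, and all 4 calls held (adjusted p from 3.20e-05 to 0.00660).

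The members were set beside the other genes of their families, as the deposited family column names them. Of 60 other GRAS genes, a plant family that also holds the DELLA repressors of gibberellin response, 39 were tested, of which 10 rose, 2 fell and 27 did not pass. That is 30.8% called, against 45.2% of all tested genes, and the median log2 fold change was 0.19, against 0.02 over all tested genes. Among the 10, LOC_Os11g47870, LOC_Os04g35250 and LOC_Os11g04570 passed the filter on low counts only through their lad libraries. LOC_Os10g22430 (chromosome 10) rose, with 42.0 ± 3.15 CPM in lad and 16.8 ± 1.35 CPM in J10, and LOC_Os01g65900 (chromosome 1) rose, with 87.9 ± 13.7 CPM in lad and 36.4 ± 1.95 CPM in J10. LOC_Os06g03710 (chromosome 6) fell, with 89.4 ± 5.93 CPM in lad and 114 ± 7.24 CPM in J10 (adjusted p = 0.0186, edgeR), and lost the call with library totals in place of TMM (adjusted p = 0.0813) and without lad replicate 2 (0.0636). The other lower one, LOC_Os06g40780, chosen after its values were seen, averaged 1.25 CPM in lad and 2.70 CPM in J10. The count of 2 lower GRAS genes depended on the setting, with 4 under upper-quartile factors and 0 with library totals, where 2 had an unadjusted p below 0.05 (edgeR). It was 2 with DESeq2 and 1 with limma-voom. Without lad replicate 2 it was 0, where 3 had an unadjusted p below 0.05, and it was 1 without lad replicate 1 or 3 or J10 replicate 1 or 3.

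Of 40 other homeobox genes, 26 were tested, of which 10 rose, 8 fell and 8 did not pass. That is 69.2% called, against 45.2% of all tested genes, with a median log2 fold change of 0.10. The count of 10 higher genes was 6 without J10 replicate 3. Among the 10, LOC_Os03g20910, LOC_Os08g14400 and LOC_Os04g45810 passed the filter on low counts only through their lad libraries, as WOX11 did. QHB had a lower log2 fold change than any of the 26, whose lowest was -1.09, for LOC_Os10g26500 (38.3 ± 3.26 CPM in lad and 81.5 ± 5.85 CPM in J10). LOC_Os10g33960, which carries the lipid-binding START domain beside its homeobox assignment, fell as well, with 54.2 ± 5.08 CPM in lad and 96.5 ± 0.651 CPM in J10. LOC_Os03g10210 rose, with 102 ± 11.0 CPM in lad and 38.9 ± 3.38 CPM in J10.

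LOC_Os03g20910 (chromosome 3, 11845060 to 11849005, minus strand) was, like WOX11, nearly silent in the wild type. It had 454, 244 and 589 counts in lad, against 14, 4 and 10 counts in J10. Its log2 fold change was 5.55 ± 0.39 (SE), with an adjusted p of 2.36e-06. As for WOX11, lad replicate 2 was the lowest lad library. In LOC_Os09g21180, chosen after its values were seen, lad replicate 2 was instead the highest. That gene had 102, 299 and 198 counts in lad, against 17, 20 and 12 in J10, with a log2 fold change of 3.69. A further gene, LOC_Os04g45810, also chosen after its values were seen, had 11, 36 and 24 counts in lad and 0 in every J10 library. There too lad replicate 2 was the highest. Its level was at least 24.7-fold higher in lad, with TMM-scaled library sizes, against a J10 floor of 3 counts summed over its libraries.

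The description that the table gives QHB, homeobox domain, is shared by 11 other genes, of which 6 had no count in any library and 3 had at most 9 counts in all. The remaining ones, named here after their values were seen, changed in opposite directions. LOC_Os01g60270 fell, with 31.6 ± 3.70 CPM in lad and 51.0 ± 2.82 CPM in J10, and LOC_Os08g14400 rose, with 1.83 ± 0.338 CPM in lad and 0.615 ± 0.400 CPM in J10 (adjusted p = 0.0274, edgeR). WOX11 carries a broader description, homeobox domain-like, which mostly marks MYB genes. Of 318 genes matching homeobox in their description, 205 are assigned to the MYB family and 35 to the homeobox family. Of the 207 tested, 81 rose (39.1%, against 24.9% of all tested genes) and 27 fell (13.0%, against 20.3%). The MYB-family genes LOC_Os05g48010 (64.5 ± 6.98 CPM in lad and 19.9 ± 1.24 CPM in J10) and LOC_Os10g41260 (69.3 ± 8.72 CPM in lad and 20.4 ± 1.43 CPM in J10) rose, and LOC_Os01g63460 (24.4 ± 1.07 CPM in lad and 43.9 ± 2.55 CPM in J10) fell.

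**Figure D4:**
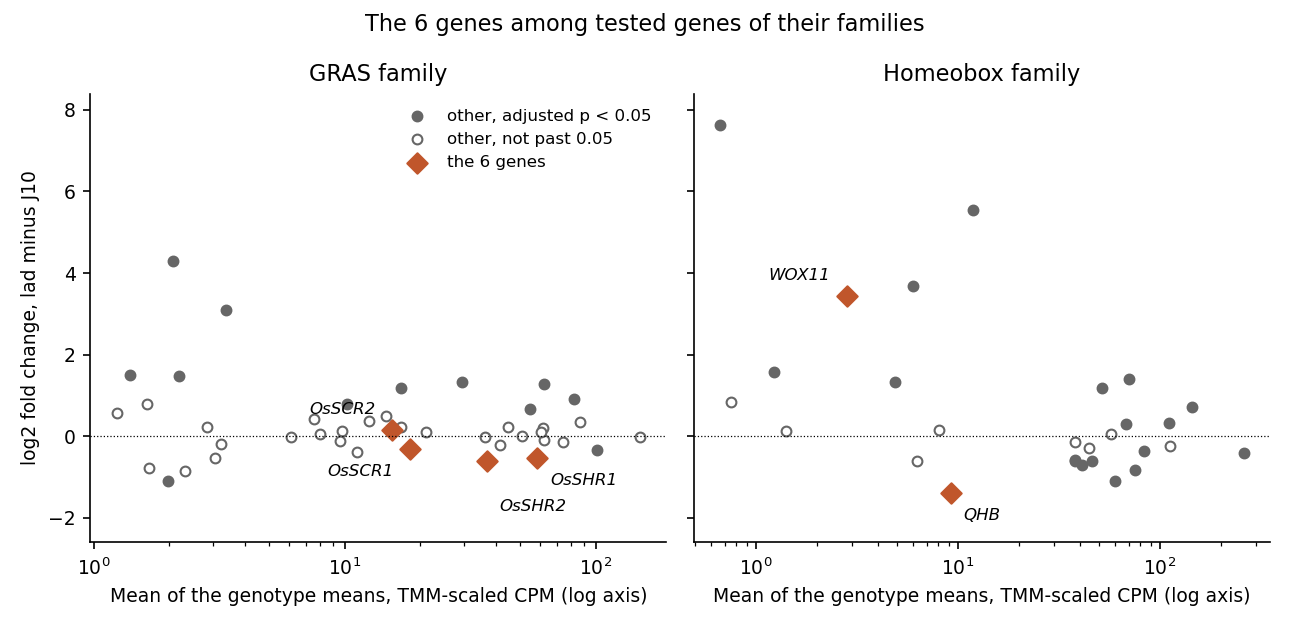
The log2 fold change (lad minus J10) of tested GRAS and homeobox genes is plotted against the mean of the genotype means in CPM on a log axis, with the 6 genes as diamonds. QHB has the lowest value of its family at -1.38, and WOX11 at 3.43 lies below LOC_Os03g20910 at 5.55 and LOC_Os09g21180 at 3.69. The topmost point is LOC_Os04g45810, whose fitted value depends on the prior count because J10 had 0 counts.

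The patterns of other genes over the 6 libraries were compared with those of the members, as the root mean square difference between log2 CPM values centred on each gene's mean. Among 9369 described genes with a mean of at least 5 CPM, the nearest to OsSHR1 was LOC_Os02g49640, a Mediator subunit gene, with a difference of 0.033, and the next was LOC_Os10g35940, a Mur ligase-domain gene, with 0.034. The nearest to OsSHR2 was the myosin gene LOC_Os03g53660, with 0.032, then the F-box gene LOC_Os07g18710, with 0.047. The nearest to OsSCR1 were LOC_Os02g39100, a leucine-rich repeat gene, with 0.046 and LOC_Os02g54890, an epimerase-domain gene, with 0.061. For OsSCR2 they were LOC_Os06g44750, of the AP2 family, with 0.034 and LOC_Os04g45990, with an SRA-YDG domain, with 0.059.

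Both genes nearest to QHB were haem peroxidase genes. LOC_Os04g39100 had a difference of 0.095, with 15.4 ± 4.57 CPM in lad and 39.5 ± 5.11 CPM in J10, and LOC_Os09g32964 also had 0.095, with 6.08 ± 2.39 CPM in lad and 16.3 ± 1.88 CPM in J10. Like QHB, both were highest in replicate 2 among the lad libraries and among the J10 libraries, a likeness built into how they were chosen. The nearest to WOX11 were the WRKY gene LOC_Os01g61080, with a difference of 0.20 and 35.9 ± 8.83 CPM in lad and 3.67 ± 0.886 CPM in J10, and the protein kinase gene LOC_Os11g44560, with 0.21 and 81.0 ± 23.9 CPM in lad and 7.32 ± 1.13 CPM in J10. The median candidate lay at 0.76 from QHB and 1.63 from WOX11. It lay at 0.33 from OsSHR1, 0.37 from OsSHR2, 0.30 from OsSCR1 and 0.31 from OsSCR2. With so many candidates and 6 libraries, near matches are found for every member. Among the members themselves, OsSHR1 lay nearest to OsSCR1, at 0.17, and QHB farthest from WOX11, at 2.35.

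No annotated gene of the table overlaps any of the 6 loci, so their counts are not shared with a listed antisense or overlapping gene. Each SCARECROW gene is followed downstream, on the same strand, by a gene described as coiled-coil domain containing protein 109, at a distance of 5202 bases on chromosome 11 and 5709 bases on chromosome 12. LOC_Os11g03130, beside OsSCR1, had a log2 fold change of -0.60 (adjusted p = 0.0420), and LOC_Os12g02880, beside OsSCR2, of -0.40 (adjusted p = 0.352). Whether reads of these neighbours match both copies was not tested. The Dof zinc finger gene LOC_Os07g48570 lies 1508 bases from WOX11 on the opposite strand, and it had a log2 fold change of 0.19 (adjusted p = 0.419), against 3.43 for WOX11.

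The libraries held 16405022 to 18816338 counts in lad and 19030866 to 20693114 in J10. Every pair of libraries within a genotype stood further apart than read sampling alone gives (chi-square over its degrees of freedom of at least 9.12), and none was merged. As a check of the tissue label, genes described as photosystem or chlorophyll-binding components, which mark green tissue, summed to 19.4 to 27.2 CPM in lad and 20.0 to 22.2 CPM in J10. Of these 40 genes, 19 had any count and 5 passed the filter on low counts. No description in the table names a root cap gene, so that tissue was not examined.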

How the data were processed

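RNA sequencing of rice root tips was analysed for 3 lad and 3 J10 libraries, grouped and numbered by their titles. The authors deposited 1 table of counts per gene with coordinates, lengths, domain descriptions and family names; the values are whole and the column totals differ, so they were taken as unnormalized counts. The submitters' processing notes list Bowtie 0.12.2 with mm8 and mm9, both mouse builds and so no source of rice loci; not given in the sources used here are the counting method, its strand setting and the rice build. The 6 names are synonyms in the RefSeq gene table (assembly ASM3414082v1), on the same chromosomes as the 6 loci, but that table shares 0 identifiers with the counts, so loci were taken from the list that defines the set. No sequence is shown.

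Counts were filtered with edgeR 4.0.16 (filterByExpr, 22624 genes kept), scaled by TMM (factors 0.924 to 1.04) and fitted by quasi-likelihood with genotype as the only term (R 4.3.3). Standard errors are the absolute log2 fold change over the square root of F. CPM were computed with TMM factors, and TPM from counts and deposited lengths. Ratios added 0.5 counts and were tested by exact permutation. The likeness measure used log2 CPM with a prior count of 2. Alternatives were DESeq2 1.42.0, limma-voom (limma 3.58.1), upper-quartile factors, library totals, no filter, a filter of 1 CPM in 3 libraries, a replicate block, and leaving out each library. A last alternative summed the SCARECROW pair into 1 gene.

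The members and lists were chosen with earlier results of these data known. The planned lists were text patterns on descriptions. Those for endodermal wall and root cap proteins matched 0 genes. The GRAS pattern matched the letters in unrelated descriptions (GAG-pre-integrase, ATP-grasp), 59 genes of which 0 are in the GRAS family column, and of 9 tested 4 were called higher and 3 lower; it was set aside for that reason. GRAS and homeobox lists were therefore taken from the deposited family column after the table was seen. Named genes were all members; per list, at most 2 called genes in each direction, taken by adjusted p among those averaging 5 CPM or more; and, for each member, the 2 described genes of most like pattern.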

Additional observations from a re-analysis of the deposited data

How the results depend on the processing

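The calls for OsSHR1, OsSHR2, QHB and WOX11 held under all 14 alternatives. Among the 14, the fit with the SCARECROW pair summed leaves the counts of these genes unchanged and so is no separate check. The log2 fold changes of these genes ranged from -0.63 to -0.43, from -0.72 to -0.53, from -1.66 to -1.18 and from 3.20 to 3.69, in that order. OsSCR1 stayed below 0 and never passed (-0.42 to -0.22, adjusted p from 0.0642 to 0.360). OsSCR2 never passed, and its log2 fold change ran from -0.020 to 0.23 when libraries were left out in turn. The sign turned only without lad replicate 2. The number of lower GRAS genes was 4 with upper-quartile factors, 0 with library totals, 1 with limma-voom and 0 to 2 when libraries were left out, against 2, and the number of higher homeobox genes was 6 to 9 when libraries were left out, against 10. The cause was not tested. Of all changed genes, 55.2% were higher in lad, against 63.1% with library totals and 49.3% with upper-quartile factors. RPKM on TMM-scaled libraries in place of TPM lowered all levels and kept the order of the members in both genotypes. The levels in lad fell by a larger share than those in J10, for OsSHR1 from 26.9 to 17.7 in lad and from 34.2 to 25.3 in J10. Differences between the genotypes read from TPM are therefore not those of the fit. Leaving out libraries moved the difference in the log2 ratio of OsSHR1 to OsSHR2 between -0.07 and 0.22.

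Replicate numbers gave no clear pairing of the libraries: deviations from the genotype means correlated at 0.06, 0.13 and -0.03 for the same number. Lad replicates 1 and 2 correlated best with the J10 library of their own number, and lad replicate 3 with J10 replicate 1 (0.10). With the replicate number as a block, 5868 genes were higher and 4780 lower, against 5644 and 4585, and the log2 fold changes were -0.53 for OsSHR1, -0.61 for OsSHR2, -0.30 for OsSCR1, 0.14 for OsSCR2, -1.41 for QHB and 3.39 for WOX11, with no change of call. Depth limits WOX11 in J10 most, at 7 to 12 counts a library.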
